A study of Homo sapiens with 14 samples.

Results

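The CCR4-NOT deadenylase is described here through 10 subunit genes: CNOT1, CNOT2, CNOT3, CNOT4, CNOT6, CNOT6L, CNOT7, CNOT8, CNOT10 and CNOT11. They were taken by gene symbol from 2 tables of the authors' own group comparisons, which together list 12202 genes, and all 10 were listed in both tables. CNOT11 was picked because its change went down in one table and up in the other, so its values are a description and carry no test; the other 9 were taken because they belong to the same complex.

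The cells were teloHAEC, a telomerase-immortalised line of human aortic endothelium. The siRNA arm set 4 libraries of cells reverse transfected with CALCRL siRNA beside 4 of cells given scrambled siRNA, lysed at 24 hours; CALCRL encodes the calcitonin receptor-like receptor. In the deletion arm, 3 libraries of cells electroporated with Cas9 protein and guides flanking an enhancer at the CALCRL locus were compared with 3 libraries from cells given Cas9 with a positive control guide against HPRT, with collection 2 days later. All groups were thus transfected or electroporated, both groups of the deletion arm were exposed to Cas9, and the labels describe transfected populations with no selection of clones. Where nothing says that replicates came from separate cultures, p-values measure only the spread between these libraries, which may be technical.

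CCR4-NOT is the main enzyme complex that shortens the poly(A) tails of cytoplasmic mRNAs, the step that usually starts their decay and also lowers their translation. CNOT1 is the scaffold on which the other subunits assemble. CNOT2 and CNOT3 dimerise at its C-terminal end, CNOT10 and CNOT11 bind its N-terminal end, and the centre holds the nucleases: CNOT7 or CNOT8, which are alternative members of the CAF1 family, and CNOT6 or CNOT6L, alternative members of the CCR4 family. CNOT4 is a RING ubiquitin ligase that associates loosely with the human complex. In endothelial cells, as elsewhere, the complex is brought to its targets by RNA-binding adaptors such as the ZFP36 and BTG/TOB proteins and by the microRNA machinery.

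The largest change among subunits not chosen for their values was that of CNOT8, which fell after the enhancer deletion to 33.3% of its control (95% interval 19.3% to 57.7%). CNOT6 fell under CALCRL siRNA to 69.9% of its control (58.6% to 83.4%). These were the only 2 calls at an adjusted p-value under 0.05 among the 18 values of the 9 subunits in the authors' deposited tables, 1 in each arm. Over all genes, 3.46% were called under siRNA and 15.8% after the deletion. Both subunit calls were lost with a Student t distribution in place of the normal one. The call of CNOT8 was also lost when the Wald statistics were divided by their robust SD. CNOT11 was lower under siRNA (70.7% of control) and higher after the deletion (173% of control), the pattern it was chosen for. The scaffold CNOT1, the CNOT2 and CNOT3 pair, CNOT10, CNOT6L, CNOT7 and CNOT4 passed the test in neither arm.

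The sequences below are shown because CNOT6 was the 1 subunit gene with copies of the 7-base word GTAACAA in its 3' UTR. This word had been picked out earlier from the same siRNA table, as the one that best marked the genes called lower, so its presence in such a gene is no independent result. CNOT6 (ENSG00000113300) lies on the plus strand of chromosome 5 from 180494412 to 180578405 in GRCh38, and its longest annotated 3' UTR has 4205 bases. The word, in capitals, starts at bases 2648, 3513 and 3623 of that 3' UTR. The windows lie at chr5:180576838-180576864, chr5:180577703-180577729 and chr5:180577813-180577839 of GRCh38, plus strand, in the order given.
CNOT6 site 1: caaaaattctGTAACAAatatatttaa
CNOT6 site 2: taccattcatGTAACAAaacccagcac
CNOT6 site 3: cggactggcaGTAACAAgggcttttac
Read in the sense of the transcript only, the word was found in 10.3% of the 10631 genes of the siRNA table with an annotated 3' UTR, and 0.273% of them had 3 or more copies. It was found in 155 (58.3%) of the 266 genes called lower under siRNA that had an annotated 3' UTR, and in 1092 genes in all. The median 3' UTR length was 1440 bases over the 10631 genes and 2459.5 over those called lower. It was 6401 over the genes with 3 or more copies. The shares were not adjusted for 3' UTR length. The letters were not found in the longest 3' UTRs of the other 9 subunits, CNOT11 included.

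No value for a single library was available, so the values per group are means implied by the mean normalised counts and fold changes of the authors' deposited tables. Counts come from tags near the poly(A) end of each transcript. Over the 10 genes, the mean normalised count in the authors' deposited tables ran from 29.8 (CNOT3) to 1152 (CNOT7) in the siRNA arm and from 45.1 to 1055, for the same genes, in the deletion arm. The median standard error of the subunits' log2 fold changes was 0.14 with siRNA and 0.34 with the deletion, and the medians over all genes were 0.17 and 0.41. The standard error of each subunit was between 0.70 and 1.35 times the median of the 201 genes nearest to it in mean count, in both arms. By the authors' deposited tables, CALCRL itself was at 34.0% of control under siRNA and 36.2% after the deletion. Of 8 endothelial marker genes, 7 were listed in both tables (CDH5, ERG, ESAM, KDR, TEK, TIE1 and VWF), while PECAM1 was listed in neither. Of 15 markers of smooth muscle, fibroblasts, epithelium and leukocytes, 4 were listed (ACTA2, SMTN, KRT8 and CD68), with adjusted p-values from 0.0978 (KRT8, deletion arm) upwards in the authors' deposited tables.

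The siRNA comparison sets cells given CALCRL siRNA beside cells given scrambled siRNA. In it, effects of the loss of CALCRL transcript cannot be told apart from other effects of the siRNA sequence. Over all 11261 genes, the authors' deposited table called 3.46% (1.05% higher and 2.42% lower). Of the 9 subunits 1 was called, CNOT6. A single call among 9 genes is not read as set apart from this background. Of the 9, 6 lay below 0 and 3 above it, and their median log2 fold change was -0.11, against 0.00 over all listed genes, of which 49.4% were lower.

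Among the nucleases, CNOT6, a CCR4-type subunit, had implied means of 183 normalised counts with scrambled siRNA and 128 with CALCRL siRNA. Its log2 fold change in the authors' deposited table was -0.52 (SE 0.13; adjusted p-value 0.00384) by the authors' DESeq2 Wald test, and 159 of the 11261 genes had a lower Wald statistic. With a Student t distribution in place of the normal one the call of CNOT6 was lost (adjusted p-value 0.407), and 5 of the 11261 genes were called. Its paralogue CNOT6L, which takes the same place in the complex, went from 236 to 200 normalised counts in the implied means. The log2 fold change of CNOT6L per the authors' deposited table was -0.24 (SE 0.17, adjusted p-value 0.662), an interval that includes 0. CNOT6 minus CNOT6L was -0.28 on the log2 scale (95% interval -0.69 to 0.14, with the errors of the genes taken as independent), so a difference between the paralogues was not resolved.

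The CAF1-type nucleases had values above 0 under siRNA. CNOT7 went from 1056 to 1248 normalised counts in the implied means, and its log2 fold change in the authors' deposited table was 0.24 (SE 0.09). Its unadjusted p-value was 0.00843 and its adjusted p-value 0.148, so it did not pass the test over all genes. CNOT8, its paralogue, was at 0.19 (SE 0.21, adjusted p-value 0.862) per the authors' deposited table, from 114 to 130 normalised counts. CNOT7 minus CNOT8 was 0.06 (95% interval -0.39 to 0.50).

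Leaving out the chosen CNOT11, the structural subunits were all on the lower side under siRNA, and none passed the test. CNOT1, the scaffold, was at -0.17 (SE 0.10, adjusted p-value 0.564) per the authors' deposited table, from 398 to 354 normalised counts. CNOT2 was at -0.21 (SE 0.12, adjusted p-value 0.503), CNOT3 at -0.05 (SE 0.29) and CNOT10, the partner of CNOT11, at -0.11 (SE 0.16) per the authors' deposited table. The ligase CNOT4 was at 0.19 (SE 0.18), from 108 to 123 normalised counts in the implied means. The intervals of CNOT1 and CNOT2 reached down to 77.5% and 73.9% of control.

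CNOT11, the subunit that anchors CNOT10 to the scaffold's N-terminal end, had implied means of 386 normalised counts with scrambled siRNA and 273 with CALCRL siRNA. Its log2 fold change in the authors' deposited table was -0.50 (SE 0.13, adjusted p-value 0.00389), among the values on which it was chosen. It lies on the plus strand of chromosome 2 from 101252802 to 101270316 in GRCh38. CNOT11 and CNOT6 were next to each other in the order of Wald statistics, at ranks 161 and 160 from the lowest. The rank of CNOT11 follows from a value it was chosen for, so this nearness is a description only.

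**Figure D1:**
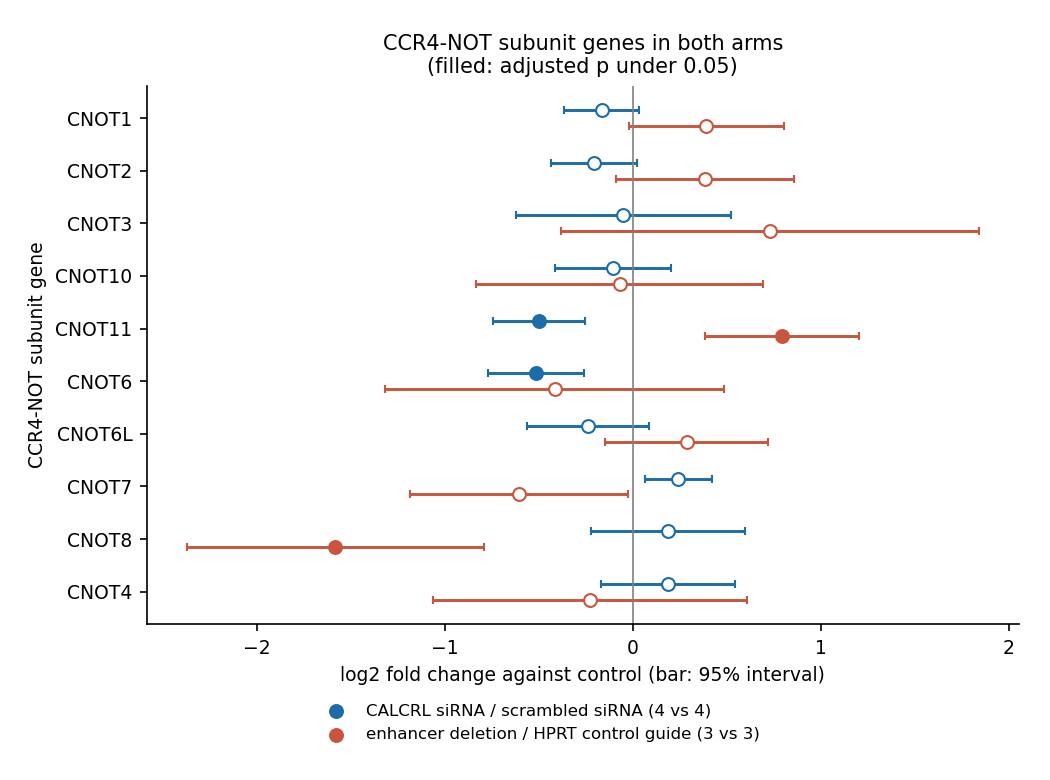
Log2 fold change of each CCR4-NOT subunit gene against its control group, in the siRNA arm (blue, 4 against 4 libraries) and the deletion arm (red, 3 against 3), with bars for 95% intervals and filled points where the adjusted p-value was under 0.05. The filled points are CNOT6 at -0.52 and CNOT11 at -0.50 under siRNA, and CNOT8 at -1.58 and CNOT11 at 0.79 after the deletion. CNOT11 was chosen for these values, so its filled points carry no test. The red bars are the wider ones for every gene.

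The deletion comparison sets cells given guides flanking the enhancer beside cells given a guide against HPRT. In it, effects of the removal of the enhancer cannot be told apart from those of the different guides. Over 11830 tested genes, the authors' deposited table called 15.8% (7.4% higher and 8.44% lower). Of the 9 subunits 1 was called, CNOT8. This share was no higher than the background. Of the 9, 4 lay above 0 and 5 below it, and their median log2 fold change was -0.07, against 0.00 over all listed genes. Of the 7 endothelial markers listed, 2 were called in this arm, both lower. They were the junction cadherin CDH5 at -1.44 (SE 0.35) and the VEGF receptor KDR at -1.05 (SE 0.31) per the authors' deposited table. ERG (-0.47), ESAM (-0.74) and TEK (-0.49) were also below 0, and TIE1 (0.09) and VWF (0.54) above it, none of them called. The summed implied mean of the 7 listed markers was 5813 normalised counts in the control and 3825 after the deletion. It was 6081 and 6047 in the siRNA arm. In bulk RNA, fewer cells of a type and less RNA per cell cannot be told apart, and the part of this shift in the subunits' values was not tested.

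CNOT8 (ENSG00000155508), on the plus strand of chromosome 5 from 154857553 to 154876793 in GRCh38, had implied means of 181 normalised counts in the control and 60.4 after the deletion. Its log2 fold change in the authors' deposited table was -1.58 (SE 0.40; adjusted p-value 0.00265) by the authors' DESeq2 Wald test, and 289 genes had a lower Wald statistic. CNOT7, the other CAF1-type nuclease, was also below its control, with implied means of 1273 and 836 normalised counts. Its log2 fold change in the authors' deposited table was -0.61 (SE 0.30; unadjusted p-value 0.0403, adjusted p-value 0.146), and it was not called. CNOT7 minus CNOT8 was 0.98 on the log2 scale (95% interval 0.00 to 1.96, its lower end just below 0), so the data leave room for equal falls and for a much deeper fall of CNOT8. The call of CNOT8 was lost when the Wald statistics were divided by their robust SD of 1.88 (adjusted p-value 0.976) and with a Student t distribution in place of the normal one (0.357), as were all other calls of this arm.

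The CCR4-type nucleases were not resolved from 0 after the deletion. CNOT6 was at -0.42 (SE 0.46, adjusted p-value 0.582) per the authors' deposited table, from 224 to 168 normalised counts, and CNOT6L was at 0.28 (SE 0.22, adjusted p-value 0.402), from 330 to 403. The difference of CNOT6 minus CNOT6L was -0.70 (95% interval -1.70 to 0.30). The deletion value of CNOT6 lay on the same side as its siRNA value, with an error over 3 times as large.

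The scaffold and the CNOT2 and CNOT3 pair had values above 0 after the deletion. CNOT1 was at 0.39 (SE 0.21, adjusted p-value 0.198) per the authors' deposited table, from 429 to 561 normalised counts. CNOT2 was at 0.38 (SE 0.24, adjusted p-value 0.282), from 352 to 460, and CNOT3 at 0.73 (SE 0.57, adjusted p-value 0.405), from 34.0 to 56.3, per the authors' deposited table. None of them was called. CNOT10 was at -0.07 (SE 0.39) and CNOT4 at -0.23 (SE 0.43), both well within their errors per the authors' deposited table. CNOT11 had implied means of 233 normalised counts in the control and 403 after the deletion, and its log2 fold change in the authors' deposited table was 0.79 (SE 0.21, adjusted p-value 0.00391), again a value it was chosen for.

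Log2 fold change in the deletion arm rose with the GC content of the last 500 transcript bases, with a Spearman correlation of 0.308 across all genes. It was 0.55 across the 10 subunits, which share the same libraries and include the chosen CNOT11, so this value is a description only. In the siRNA arm the correlation was 0.08 across all genes and -0.09 across the 10 subunits. CNOT3 was the subunit with the highest GC content, 61.0%, and CNOT2 the one with the lowest, 25.0%. At these GC contents the trend over all genes stood at 0.57 and -0.38 on the log2 scale. With the trend removed, CNOT3 was at 0.15, and CNOT2 was at 0.77 and passed the test (adjusted p-value 0.0200). The transcript used for CNOT2, the one with the longest 3' UTR, has 2360 bases, 1801 of them 3' UTR. Whether the sequenced tags came from its end was not tested, so this call holds only for the GC content of that transcript. CNOT8 (33.2% GC) was at -1.36 after removal and stayed called (adjusted p-value 0.0129), and CNOT7 was at -0.40. CNOT11 (41.0% GC) was at 0.90.

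**Figure D2:**
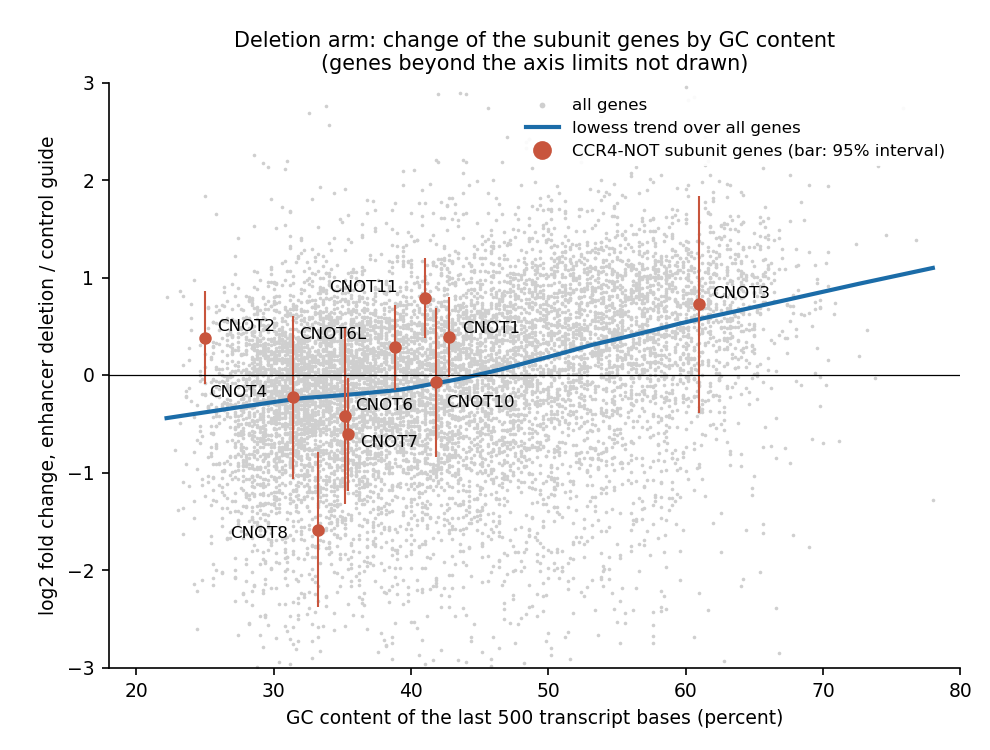
Log2 fold change in the deletion arm against the GC content of the last 500 transcript bases, for all genes in both tables (grey) and for the CCR4-NOT subunit genes (red, bars for 95% intervals), with the lowess trend over all genes (blue). CNOT8 lies well under the trend at 33.2% GC, CNOT11 and CNOT2 lie above it, and CNOT3 at 61.0% GC lies near it.

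The arms share no control libraries, so the difference between them was tested for each gene by dividing it by the root of the summed squared standard errors, against the normal distribution and with Benjamini-Hochberg adjustment over 10891 genes. The effects differed in 13.7% of all genes and in 2 of the 9 subunits, CNOT8 and CNOT7, both higher in the siRNA arm. The log2 fold change under siRNA minus that after the deletion was 1.77 (SE 0.45, adjusted p-value 0.00357) for CNOT8. It was 0.85 (SE 0.31, adjusted p-value 0.0468) for CNOT7, which lost the threshold when the GC trend was removed (0.65, adjusted p-value 0.156). Both differences lost it with a Student t reference (adjusted p-values 0.276 for CNOT8 and 0.284 for CNOT7) and with the statistics divided by their robust SD (0.992 each). The arms also differ in delivery, time and control, which cannot be told apart from the target of the treatment.

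CNOT1, CNOT2 and CNOT6L lay on the other side, lower under siRNA than after the deletion, without passing the test. Their differences were -0.56 (SE 0.23, adjusted p-value 0.0879), -0.59 (SE 0.27, adjusted p-value 0.119) and -0.52 (SE 0.28, adjusted p-value 0.193). With the GC trend removed, the difference of CNOT2 was -0.96 and passed (adjusted p-value 0.00830), with the same limit on its GC content. The difference was -0.78 (SE 0.64) for CNOT3, 0.42 (SE 0.46) for CNOT4, -0.10 (SE 0.48) for CNOT6 and -0.03 (SE 0.42) for CNOT10, and these 4 had 95% intervals that include 0. For CNOT11 the difference was -1.29 (SE 0.24), given without a test.

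Of the 9 subunits, 7 had log2 fold changes of opposite sign in the arms, 4 lower with siRNA and higher after the deletion (CNOT1, CNOT2, CNOT3 and CNOT6L) and 3 the other way (CNOT4, CNOT7 and CNOT8). Over all 10891 genes 48.9% had opposite signs. In each arm 7 of the 9 subunits had a 95% interval that includes 0, and with the GC trend removed CNOT4 turned to 0.019 and CNOT10 to 0.013 in the deletion arm. The Spearman correlation between the arms was -0.35 over the 9 subunits and 0.02 over all genes, as a description.

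**Figure D3:**
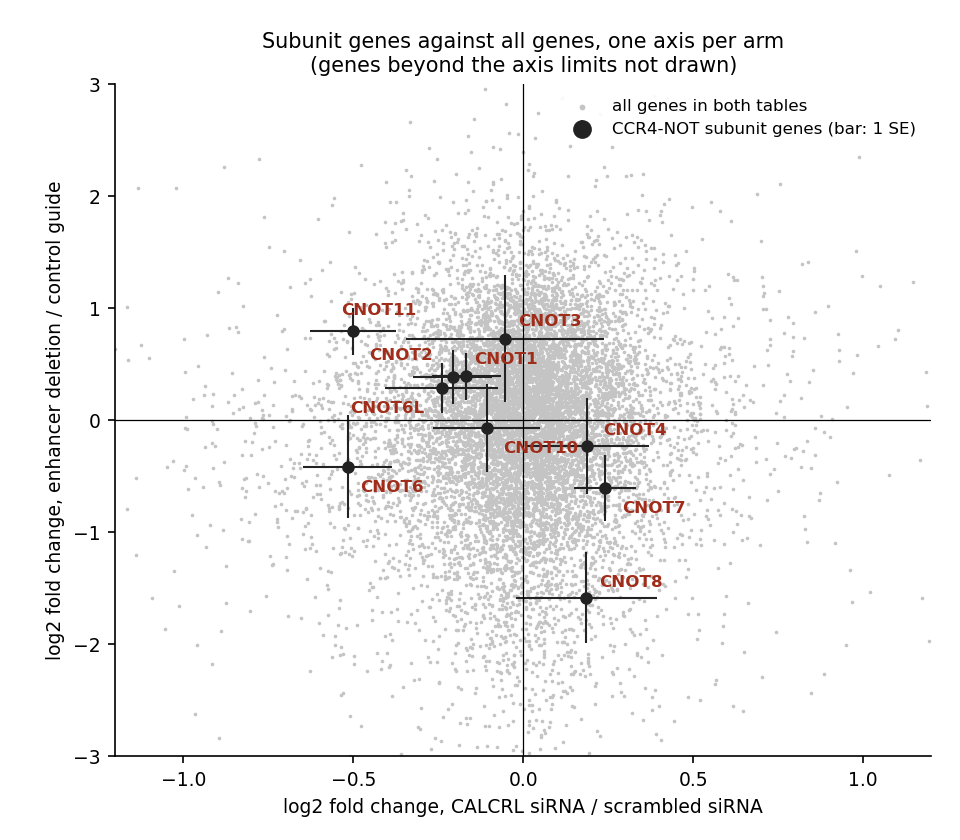
Log2 fold change under CALCRL siRNA (horizontal) against log2 fold change after the enhancer deletion (vertical) for all genes in both tables (grey) and the CCR4-NOT subunit genes (black, bars for 1 SE). CNOT11 stands in the upper left at -0.50 and 0.79, CNOT8 and CNOT7 in the lower right, and CNOT6 at the left with a vertical bar that reaches 0.

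Of the 10891 genes in both tables, 47 were called in both. Among these, 13 were lower with siRNA and higher after the deletion, CNOT11 included, and 10 were higher with siRNA and lower after the deletion. The 3 genes whose pair of log2 fold changes lay nearest to that of CNOT11, out of the other 12, were DDAH1 (distance 0.02), SASH1 (0.09) and SYNPO (0.14). This likeness covers only 2 comparisons and uses the values for which CNOT11 was chosen. DDAH1, an enzyme that breaks down methylated arginines that inhibit nitric oxide synthase, was by the authors' deposited tables at -0.51 (SE 0.13) under siRNA and 0.78 (SE 0.26) after the deletion.

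A further core subunit, CNOT9, is listed under its older symbol RQCD1 and was outside the symbols used to choose the members. By the authors' deposited tables, RQCD1 was at -0.01 (SE 0.11) under siRNA and 0.14 (SE 0.27) after the deletion, with 95% intervals from 85.6% to 115% and from 76.5% to 159% of control. TNKS1BP1, which associates with the complex, was at 0.11 (SE 0.15) and 0.33 (SE 0.32) in the authors' deposited tables. Neither passed the test in either arm.

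The genes that recruit CCR4-NOT or act beside it were counted in 3 lists with 56 genes, of which 51 were listed for siRNA and 50 for the deletion. In the siRNA arm 4 of 51 were called (7.84%), all lower, and the lists' median log2 fold change was -0.03, against 0.00 over all genes, of which 3.46% were called and 2.42% lower. All 4 calls were lost with a Student t reference. They were TNRC6B, SAMD4A and ZFP36L2 among the adaptors and DCP2 among the decapping genes. None of 12 other deadenylase and poly(A)-binding protein genes was called by the authors' DESeq2 test, while 1 had an unadjusted p-value under 0.05. In that list the lowest p-values belonged to the poly(A)-binding protein PABPC4, at -0.24 (SE 0.09, adjusted p-value 0.134), and the mitochondrial deadenylase PDE12, at -0.24 (SE 0.13, adjusted p-value 0.446), per the authors' deposited table. In the deletion arm 8 of 50 were called (16.0%), 1 higher and 7 lower, with a median of -0.26, against 0.00 over all genes. The calls were BTG2, PUM2 and ZFP36L1 among the adaptors, PABPC1 and PAN2 among the deadenylase and poly(A)-binding genes, and LSM14A, PATL1 and LSM2 among the decapping and decay genes. The total share in the deletion arm was close to the background of that arm, 15.8%. Of all genes in that arm, 7.4% were called higher and 8.44% lower, so the listed calls leaned more to the lower side. The median of -0.26 and this lean were not adjusted for GC content, with which log2 fold change rose in that arm (Spearman correlation 0.308 across all genes). With the GC trend removed, 9 of 49 were called, TNRC6B and PAIP1 higher and the others lower. How far the lower median goes with GC content was not tested.

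Under siRNA, TNRC6B, a GW182 protein that links Argonaute to CCR4-NOT, had implied means of 368 and 203 normalised counts, and its log2 fold change in the authors' deposited table was -0.86 (SE 0.18, adjusted p-value 0.000140). DCP2, the decapping enzyme that acts after tail removal, was at -0.68 (SE 0.17), ZFP36L2, an adaptor for AU-rich elements, at -0.66 (SE 0.18), and SAMD4A, a stem-loop binding adaptor, at -0.49 (SE 0.12) per the authors' deposited table. As with CNOT6, sites of the word GTAACAA are shown because DCP2, ZFP36L2 and SAMD4A each had 1, and TNRC6B had none in its longest 3' UTR. The windows lie at chr5:113019619-113019645 for DCP2, chr2:43222515-43222541 for ZFP36L2, chr14:54791900-54791926 for SAMD4A and chr11:118748601-118748627 for DDX6, in GRCh38; DCP2 and SAMD4A are on the plus strand, ZFP36L2 and DDX6 on the minus strand.
DCP2 site: tttttcttcaGTAACAAaaacagggaa
ZFP36L2 site: gtttttgaatGTAACAAgataagtcaa
SAMD4A site: taagaaaataGTAACAAttttaaaatc
DDX6 site: ttctagatgaGTAACAAaaaaatgaaa
DDX6, a helicase that binds CNOT1, carried the word too and was at 0.02 (SE 0.21) under siRNA per the authors' deposited table, so the word was also present in a gene that did not pass the test. Whether the sites took part in the lower values of CNOT6, DCP2, ZFP36L2 and SAMD4A was not tested.

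After the deletion, PATL1, a decapping factor that bridges deadenylation and decapping, had implied means of 242 and 64.3 normalised counts and a log2 fold change of -1.91 (SE 0.40, adjusted p-value 0.000174) per the authors' deposited table. BTG2, an adaptor that binds CNOT7 and CNOT8 directly, went from 100.4 to 22.7 normalised counts, at -2.14 (SE 0.53, adjusted p-value 0.00173) per the authors' deposited table. LSM14A was at -1.38 (SE 0.34), ZFP36L1 at -1.13 (SE 0.36), PUM2 at -1.02 (SE 0.38) and LSM2, the gene that rose, at 0.80 (SE 0.26) per the authors' deposited table. PABPC1, the main cytoplasmic poly(A)-binding protein, was at -0.99 (SE 0.27) per the authors' deposited table, a value to be read with care, since PABPC1 has annotated pseudogenes and how reads shared with them were counted is not given in the sources used here. PAN2, the nuclease of the other cytoplasmic deadenylase, had an implied mean under 3 counts after the deletion, so no fold is given; the upper end of its 95% interval was 21.1% of control. With the GC trend removed, PUM2, ZFP36L1 and LSM2 were no longer called (adjusted p-values 0.137, 0.0847 and 0.0766), while TNRC6B (0.77, adjusted p-value 0.0303) and PAIP1 (1.09) were called higher and LSM4 (-0.81) and SAMD4B (-0.84) lower.

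**Figure D4:**
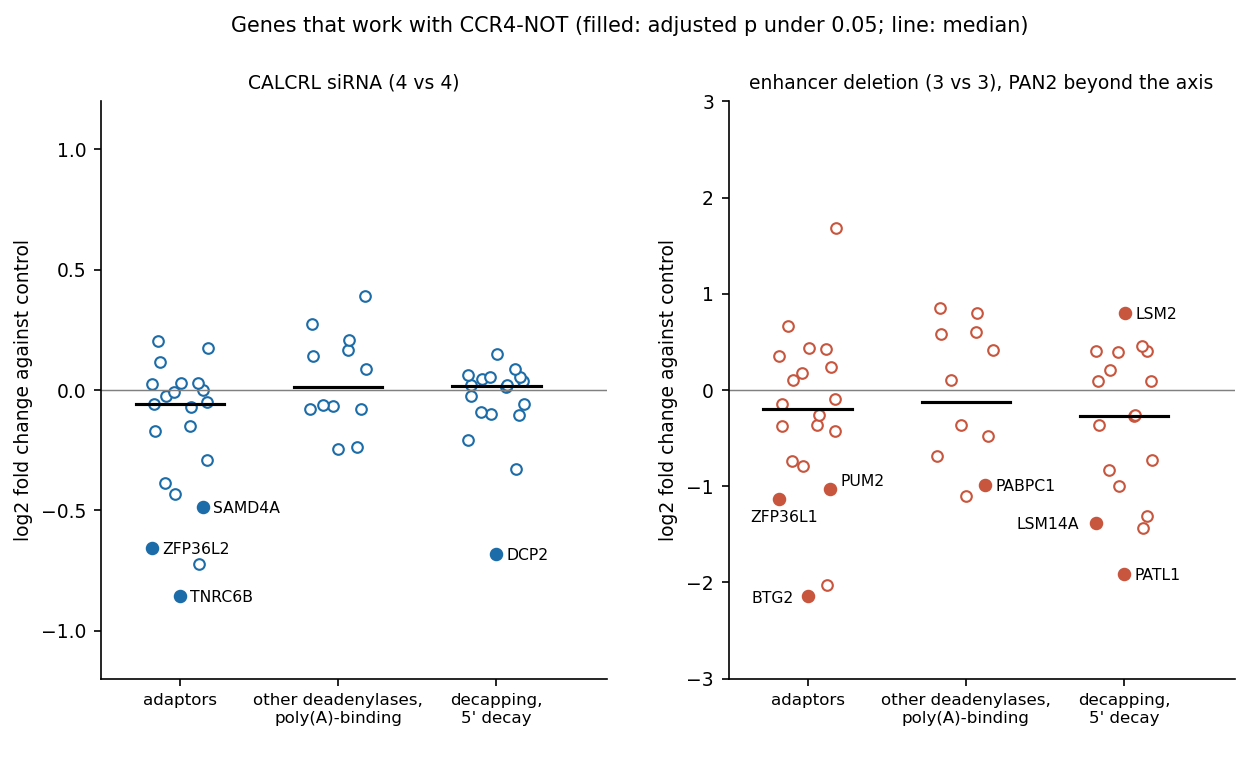
Log2 fold changes of genes that work with CCR4-NOT, in 3 lists, for the siRNA arm (left) and the deletion arm (right, on a wider axis, PAN2 not drawn), with filled points for an adjusted p-value under 0.05 and a line at each list's median. The 4 filled points on the left lie between -0.49 and -0.86, and 1 of the 7 filled points drawn on the right, LSM2, lies above 0.

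Some subunit values could hold reads of another gene, since strand-specific counting is not given in the sources used here. In the last 1000 bases of its transcript, CNOT1 overlaps SETD6 and CNOT3 overlaps LENG1, each on the opposite strand, and both of those genes are listed in a table. No other subunit had an annotated gene there. The annotation names 4 processed pseudogenes of CNOT4, CNOT6L and CNOT7, and 0 of them were listed in either table.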

How the data were processed

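RNA libraries were made with a 3' tag kit (QuantSeq FWD) and sequenced as single-end reads, per the labels' protocols. Counting with featureCounts and group comparison with DESeq2 were the authors' steps, per the file names and the file headers. Each deposited table holds, per gene, a normalised count averaged over the libraries of the arm (a signal), the log2 fold change, its standard error, the Wald score and p-values. The submitters' processing notes name hg19 and edgeR 3.24.3, with no role; the aligner, annotation and filters are not given in the sources used here. Numbers with decimal commas were read as such. The Wald statistic equalled the log2 fold change over its standard error, and the adjusted p-value a Benjamini-Hochberg adjustment over the listed genes, to within rounding.

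The tables hold no value per library, so depth per library, outlying or duplicated libraries and overlap between groups could not be examined. Implied group means were derived from the mean count and fold change with equal group sizes, and 95% intervals from the standard error. The difference between arms used a normal reference. Positions, 3' UTRs and transcript sequences came from GENCODE release 29 (GRCh38), matched by gene ID, which is not the build named by the submitters; the transcript with the longest 3' UTR was used. The GC trend was a lowess fit of span 0.3 (statsmodels 0.14.6, Python 3.11.15).

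The members, the lists and the tests were chosen with earlier results of these data known. The rule named all members, every called gene of the 3 partner lists or the lowest p-values of a list without calls, and the 3 genes most like CNOT11. NOCT and CNOT9 were matched by older symbols. Alternatives were a Student t reference, division by the robust SD, median centring, a minimum mean count of 8 CPM relative to the table sum, and removal of the GC trend.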

Additional observations from a re-analysis of the deposited data

Results flagged for a closer look

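The effect on CNOT8 differed between the arms: its log2 fold change was 1.77 higher under CALCRL siRNA than after the enhancer deletion (SE 0.45, adjusted p-value 0.00357 by the normal test of the difference, over 10891 genes). The effect on its paralogue CNOT7 differed by 0.85 in the same direction (SE 0.31, adjusted p-value 0.0468), and was 0.65 and no longer past the threshold with the GC trend removed (adjusted p-value 0.156). Both differences lost the threshold with a Student t reference and with the statistics divided by their robust SD. Each difference compares 1 value per arm, with no value per library, so how many libraries show its direction is not known. At the same threshold, 13.7% of all genes differed between the arms.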

How the results depend on the processing

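Counts here are over the 9 subunits without CNOT11. Under median centring and under the minimum mean count, CNOT6 in the siRNA arm, CNOT8 in the deletion arm and the 2 genes differing between arms (CNOT7 and CNOT8) kept their calls, and CNOT3 fell below the minimum in the siRNA table. A Student t reference left 0 subunits called in each arm and 0 differing, with 2 in the siRNA arm, 1 in the deletion arm and 2 for the difference at an unadjusted p-value under 0.05; it also left 0 of the 4 partner genes called under siRNA and 0 of the 8 after the deletion, with 5 and 7 at an unadjusted p-value under 0.05. Division by the robust SD left the call of CNOT6 and the 4 siRNA partner calls in place and took those of the deletion arm and of the difference to 0, with 1 subunit each at an unadjusted p-value under 0.05, and the 8 partner genes to 0, with 3 at an unadjusted p-value under 0.05. No gene of the deletion table passed under either of these settings. With the GC trend removed, 2 subunits were called after the deletion (CNOT2 and CNOT8), and CNOT4 (0.019) and CNOT10 (0.013) changed sign in that arm. The 2 differing between arms were then CNOT2 and CNOT8 in place of CNOT7 and CNOT8. Both results for CNOT2 depend on the GC content of the transcript used for it. The adjusted p-value of CNOT6 under siRNA ranged from 0.00312 to 0.407 over the 5 alternatives, and that of CNOT8 after the deletion from 0.00209 to 0.976.

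No paired analysis was possible because values of individual libraries are not part of the 2 tables. Fits blocked on replicate number, fits without each replicate in turn, and edgeR or other normalisations were therefore not run.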
